A study of Mus musculus with 6 samples.

Results

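The genes described here are 10 components of the Notch pathway, chosen by symbol from a table of 22851 mouse genes: the receptors Notch1, Notch2 and Notch3, the ligands Dll1, Dll3, Jag1 and Jag2, and the target genes Hes1, Hes5 and Hey1. All 10 had a row in the table and all 10 passed the filter on low counts, as did 14243 genes in all. RNA came from primary radial glial cells, the progenitors that line the brain ventricles, isolated from the brains of C57BL/6J mice at postnatal days 0 to 3. The cells were grown with 10% fetal bovine serum and then kept without serum for 6 days, which turns them into multiciliated ependymal cells. The WT group (3 libraries) came from mice labelled wild type, and the Edf1 KO group (3 libraries) from mice in which Edf1 was knocked out with CRISPR/Cas9; both had the same serum-free induction. No sorting step, no Cre or cell type restriction of the knockout, and no number of animals behind a library is given in the sources used here. Libraries are called by their group and replicate number, for example WT 1 and KO 1.

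Notch is a receptor on one cell that is activated by a ligand of the Delta (Dll) or Jagged (Jag) family on a neighbouring cell. Binding leads to cleavage of the receptor, first by an ADAM protease and then by the gamma-secretase complex, and the released intracellular part joins the DNA-binding protein Rbpj and Maml coactivators to switch on repressor genes of the Hes and Hey families. In neural tissue this keeps progenitors from differentiating, and in several epithelia Notch activity holds back the multiciliated fate. Edf1, the gene removed here, bridges transcription factors and the basal transcription machinery and is also recruited to stalled, collided ribosomes.

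Few sequences bear on these results, because only expression was measured. The sequences before the start sites of Hes5 and Jag1 are shown because Hes5 is a textbook direct target of Rbpj and Jag1 is the member with the largest difference between the genotypes. Capitals mark the Rbpj core, searched as TGGGAA on both strands, so that TTCCCA is a match on the opposite strand. Both are given 5′ to 3′ on the gene's strand from RefSeq, build GRCm38.p6, and they end where the annotated gene begins.
Hes5, 250 bases, plus strand, chr4:154960673-154960922: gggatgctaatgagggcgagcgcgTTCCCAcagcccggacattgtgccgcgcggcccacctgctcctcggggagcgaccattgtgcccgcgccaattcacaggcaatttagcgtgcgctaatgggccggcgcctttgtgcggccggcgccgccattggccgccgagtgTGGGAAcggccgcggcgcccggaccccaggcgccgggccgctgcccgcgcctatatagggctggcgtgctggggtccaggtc
Jag1, 126 bases, minus strand, chr2:137116645-137116770: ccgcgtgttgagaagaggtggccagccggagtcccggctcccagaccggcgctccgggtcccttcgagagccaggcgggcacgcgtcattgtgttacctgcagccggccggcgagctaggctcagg

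Windows of 250 bases before a start site were found by symbol for 8 of the 10 members. None was found for Hes1 or Hey1, so Hes5 was the only target searched. Some start sites lie inside the annotated gene, by 12841 bases for Notch1, 453 for Dll3, 281 for Jag2 and 1049 for a window of Dll1. The Jag1 window also runs into its annotated gene, past the 126 bases shown. The Hes5 window held 2 matches to the core, beginning at positions -226 and -82 relative to the start site, and the windows of Notch1, Notch2, Notch3, Dll1, Dll3, Jag1 and Jag2 held none. For comparison, 21.6% of 32817 windows of the same length held at least 1 match and 2.77% held at least 2. These matches are letters in a window and no binding was measured.

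The targeted gene was checked first. Edf1 had 82.6, 85.9 and 80.2 CPM (counts scaled to a common library size after TMM normalisation) in WT 1, 2 and 3 and 9.84, 10.9 and 13.2 CPM in KO 1, 2 and 3. Every knockout library was far below every WT library, as labelled (log2 fold change -2.85, SE 0.091). Counts per gene cannot place the remaining knockout reads within Edf1. Of the 31-mers (stretches of 31 bases) in the longest Edf1 transcript, 14.8% also occur in other annotated genes. Total counts were 13071766 to 26466025 in WT and 16160922 to 28087006 in the knockout. Summed over 10 markers of ependymal and multiciliated cells, such as Foxj1, Deup1 and Hydin, the level was 1768 to 1988 CPM in WT and 1010 to 1058 CPM in the knockout, and all 10 markers were called lower. Its markers were thus expressed in both groups. WT 2, the library with the fewest counts, stood apart in its level of long transcripts, as described with the receptors. In bulk RNA, a change in the share of cells that express a gene and a change in RNA per cell cannot be told apart.

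Of the 10 members, 3 were called higher in the knockout and 0 lower, by edgeR's quasi-likelihood test with a Benjamini-Hochberg adjusted p-value under 0.05 over all genes tested. The 3 were Jag1, Notch1 and Notch3. Over all 14243 genes, 12.7% were called higher, 14.2% lower and 26.9% either way, so the members' share of 3 in 10 lies near the background. DESeq2 and limma voom also called 3 members higher and 0 lower, and at an unadjusted p-value under 0.05 there were 5 higher and 1 lower. The median log2 fold change of the 10 was 0.18, against 0.0029 over all genes tested. For 5 members all knockout libraries were above all WT libraries, and for 1 they were all below. Over all genes, groups without overlap made up 43.3%, with the knockout above in 21.3% and below in 22.1%.

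**Figure D1:**
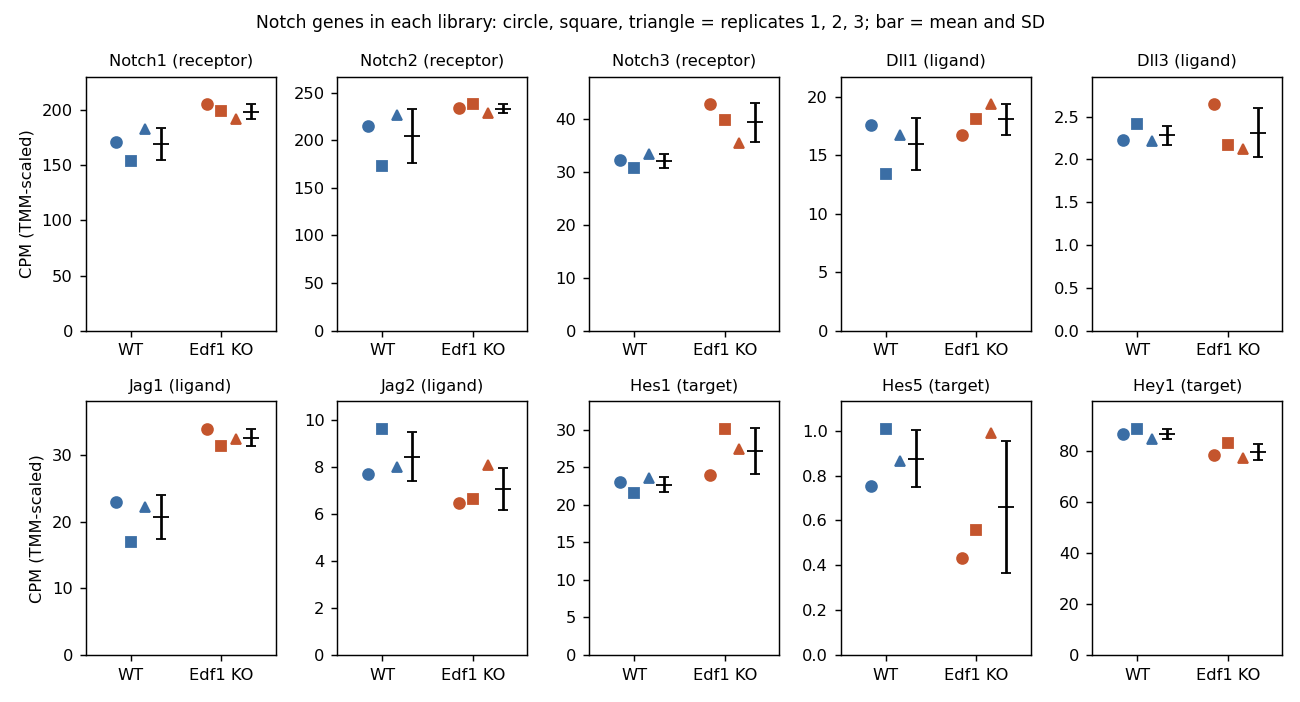
Expression of the 10 Notch genes in CPM (vertical axes, from 0) in each WT (blue) and Edf1 KO (orange) library; circles, squares and triangles are replicates 1, 2 and 3, and bars give the mean and SD (n = 3). Jag1 shows the clearest separation, with 31.4 to 34.0 CPM in the knockout and 16.9 to 23.0 CPM in WT, while Dll1, Dll3, Jag2 and Hes5 overlap between the groups.

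Jag1, a Jagged ligand that activates Notch receptors on neighbouring cells, rose in the knockout. The gene lies at chr2:137081456-137116644 on the minus strand (GENCODE M21, GRCm38), with 25 merged exons. It had 23.0, 16.9 and 22.2 CPM in WT 1, 2 and 3 and 34.0, 31.4 and 32.5 CPM in KO 1, 2 and 3. All knockout libraries were above all WT libraries, and WT 2 was the lowest of the 6. The mean rose from 20.7 ± 3.3 to 32.6 ± 1.3 CPM (SD, n = 3 each). The fitted fold was 1.55, a log2 fold change of 0.64 (SE 0.10, 95% interval 0.42 to 0.86, adjusted p-value 0.000553 by edgeR). Leaving out WT 2 lowered it to 0.53, still past the threshold, and the call held in all 15 alternatives, which gave 0.53 to 0.72. Its exons overlap no other annotated gene, and 0% of the 31-mers in its longest transcript occur in another gene.

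The other ligands did not pass the test. Dll1, the Delta ligand of many neural progenitors (chr17:15367354-15376872), had 17.6, 13.4 and 16.8 CPM in WT and 16.7, 18.1 and 19.4 CPM in the knockout. The groups overlapped, since KO 1 was below WT 1 (log2 fold change 0.17, 95% interval -0.06 to 0.40, adjusted p-value 0.269 by edgeR). Dll3, a ligand that acts inside the cell that makes it and does not activate receptors of neighbours (chr7:28293553-28302238), was low throughout. It had 2.22, 2.41 and 2.22 CPM in WT and 2.64, 2.17 and 2.12 CPM in the knockout. Its fitted log2 fold change was 0.01, with a 95% interval of -0.44 to 0.46 that covers changes in either direction (adjusted p-value 0.969 by edgeR). Jag2, the second Jagged ligand (chr12:112907819-112929776), pointed the other way from Jag1, with 7.68, 9.63 and 8.0 CPM in WT and 6.46, 6.63 and 8.07 CPM in the knockout. KO 3 lay among the WT values, and the log2 fold change was -0.23 (95% interval -0.53 to 0.08, adjusted p-value 0.259 by edgeR).

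Of the 3 receptors, Notch1 and Notch3 rose by small amounts and Notch2 did not pass the test. Notch1 (chr2:26457903-26516663) had 171, 154 and 183 CPM in WT and 206, 199.5 and 192 CPM in the knockout. The groups did not overlap, although KO 3 was only slightly above WT 3. The mean rose from 169.6 ± 14.7 to 199.0 ± 6.88 CPM (SD, n = 3 each), or 0.23 on the log2 scale (edgeR, SE 0.063 and adjusted p-value 0.0178). Notch3 (chr17:32120820-32166852), a receptor known from vascular mural cells as well as neural progenitors, had 32.2, 30.6 and 33.4 CPM in WT and 42.7, 39.8 and 35.5 CPM in the knockout. The knockout libraries were all higher but spread widely, with KO 3 near WT 3. The fitted difference was 0.29 on the log2 scale (edgeR, SE 0.080 and adjusted p-value 0.0191). Notch2 (chr3:98013527-98150361) had 215, 173 and 227 CPM in WT and 234, 238 and 228 CPM in the knockout. The 3 knockout values were close together and WT 3 almost reached them, while WT 2 was far below. Its log2 fold change of 0.18 (SE 0.080, 95% interval 0.01 to 0.36) did not pass the test (adjusted p-value 0.11 by edgeR).

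The receptor calls were lost under a joint correction for GC content and transcript length, and under the omission of single libraries. The longest annotated transcripts of Notch1, Notch2 and Notch3 have 9488, 10500 and 8016 bases. In WT 2, the 862 tested genes with transcripts over 8 kb had a median of -0.27 on the log2 scale relative to the mean of the 6 libraries, against 0.01 in WT 1 and 0.04 in WT 3 and 0.04 to 0.11 in the knockout libraries. On the same scale WT 2 had -0.25 for Notch1, -0.33 for Notch2 and -0.21 for Notch3. Genes over 8 kb had a median log2 fold change of 0.13, and 20.4% of them were called higher. After removal of the trends with GC content and length that each library showed, the log2 fold change of Notch1 was 0.08 (adjusted p-value 0.149 by edgeR) and that of Notch3 was 0.14 (adjusted p-value 0.156 by edgeR), and neither passed. Without WT 2, Notch1 had 0.17 and Notch3 0.26 and both passed, while Notch2 had 0.08. Both calls were lost without KO 1 (0.20 and 0.23) or without KO 2 (0.23 and 0.28), and that of Notch3 also without WT 1 (0.29). Over all genes, 2658 were called without KO 1, 2662 without KO 2 and 2955 without WT 1, against 3833 in the reported fit. Notch2 passed without WT 3 (0.26, adjusted p-value 0.0263 by edgeR). Jag1, with a longest transcript of 5612 bases, had 0.59 after the length and GC correction and passed.

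**Figure D2:**
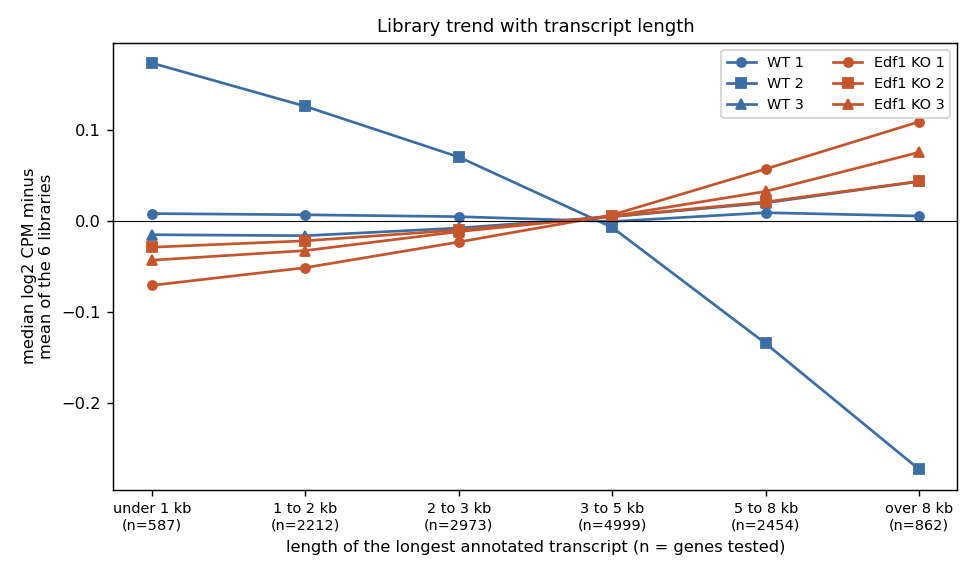
Median log2 CPM of each library relative to the mean of the 6 libraries (vertical axis) for genes grouped by the length of their longest annotated transcript (horizontal axis, number of genes below each group). WT 2 falls from 0.17 for genes under 1 kb to -0.27 for genes over 8 kb, the range in which the 3 receptors lie, and the other 5 libraries stay between -0.07 and 0.11.

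None of the 3 targets was called. Hes1, a repressor that is the classic readout of Notch signalling in progenitors (chr16:30064384-30067796), had 23.0, 21.5 and 23.5 CPM in WT and 23.9, 30.1 and 27.4 CPM in the knockout. The groups did not overlap, but KO 1 was close to the WT values. The log2 fold change of 0.26 (SE 0.091, 95% interval 0.06 to 0.46) missed the threshold, with an adjusted p-value of 0.0533 by edgeR. Hes1 is a short gene, with a longest transcript of 1468 bases, and after the length and GC correction its log2 fold change was 0.37 and passed (adjusted p-value 0.00447 by edgeR). It also passed with library size alone (0.27), without a filter on low counts (0.26) and without KO 1 (0.34), and its adjusted p-values over 15 alternatives were 0.00447 to 0.212.

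Hey1, a repressor of the Hey family (chr3:8663359-8667256), pointed downward. It had 86.7, 89.0 and 85.0 CPM in WT and 78.8, 83.2 and 77.4 CPM in the knockout. All knockout values were below all WT values, but by little. The log2 fold change was -0.12 (SE 0.055, 95% interval -0.24 to -0.0032, adjusted p-value 0.121 by edgeR), and no alternative called it. Hes5, a repressor typical of neural stem cells (chr4:154960923-154962371), was barely expressed, with 20, 13 and 16 counts in WT against 7, 10 and 28 counts in the knockout. Scaled to library size this was 0.753, 1.01 and 0.865 CPM in WT against 0.430, 0.557 and 0.991 CPM in the knockout. KO 1 and KO 2 were below every WT library and KO 3 lay among them (log2 fold change -0.28, 95% interval -1.09 to 0.53, adjusted p-value 0.628 by edgeR). Leaving out KO 3 moved it to -0.77, which did not pass either. The interval covers changes in either direction. Neither DESeq2 nor limma voom called any of the 3 targets, and at an unadjusted p-value under 0.05 there was 1 higher (Hes1) and 1 lower (Hey1).

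**Figure D3:**
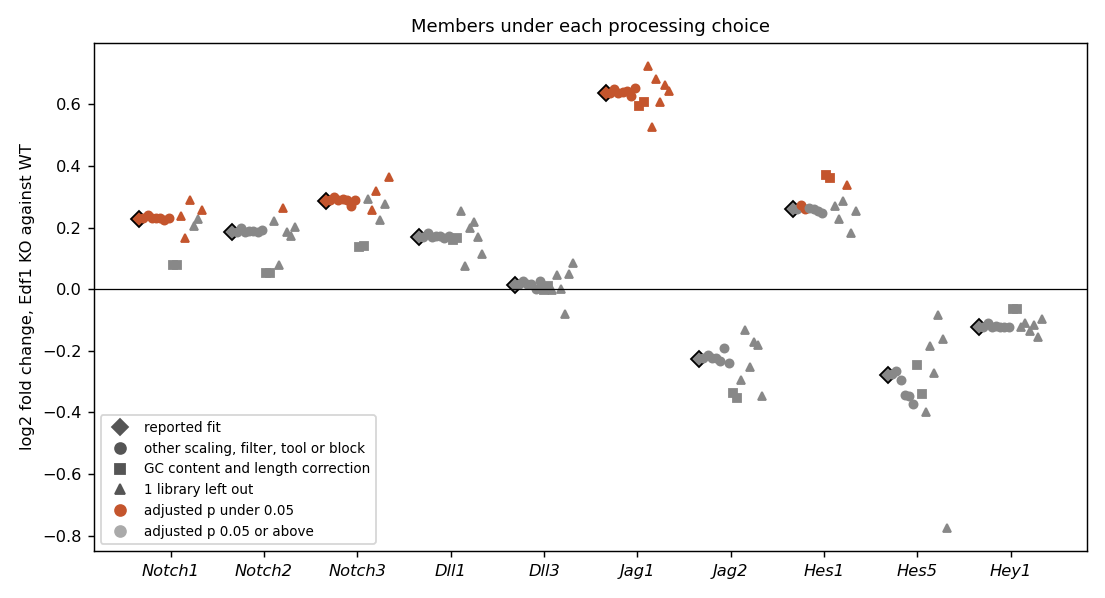
Log2 fold change of each Notch gene, Edf1 KO against WT (vertical axis), in the reported fit (diamond) and under the alternatives; orange marks an adjusted p-value under 0.05. Jag1 stays between 0.53 and 0.72 and is called in every setting shown, Notch1 and Notch3 drop to 0.08 and 0.14 with the GC content and length correction, and Hes1 rises to 0.37 there.

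Levels of different genes were set side by side only per length, as TPM (the counterpart of CPM that divides by transcript length) computed from the counts and the longest annotated transcript. In WT the order was Hey1 (94.3 ± 1.61 TPM), Notch2 (51.5 ± 8.81), Notch1 (47.2 ± 5.64), Hes1 (40.7 ± 3.26), Dll1 (11.8 ± 2.0), Notch3 (10.5 ± 0.81), Jag1 (9.76 ± 1.86), Jag2 (4.34 ± 0.38), Dll3 (2.29 ± 0.025) and Hes5 (1.81 ± 0.21; mean and SD of TPM, n = 3). The ranges of Notch2 and Notch1 overlapped, as did those of Notch1 and Hes1, of Dll1 and Notch3, and of Notch3 and Jag1. The other neighbours in this order did not overlap. In the knockout the order was the same except that Jag1 (15.9 ± 0.73 TPM) stood above Dll1 (13.8 ± 1.0) and Notch3 (13.4 ± 1.26). Hey1 was above 85.0% of tested genes in WT and Hes5 above 10.8%. Among the ligands, Dll1 was above Jag1 in TPM in each WT library and Jag1 above Dll1 in each knockout library, with 12.9 to 14.9 TPM for Dll1 and 15.2 to 16.7 TPM for Jag1 in the knockout. This order depends on the length assigned: with the median length of each gene's annotated transcripts, Dll1 was above Jag1 in the knockout too, with 25.4 to 29.4 TPM for Dll1 and 9.87 to 10.8 TPM for Jag1, and Notch1, which has short annotated transcripts, had 456 TPM in WT.

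Ratios of raw counts between members within a library need no scaling factor. They still carry a library's trend with transcript length or GC content where these differ between the genes. The pairs were chosen after the values were seen. The Jag1 to Dll1 ratio was 1.31, 1.26 and 1.33 in WT against 2.03, 1.74 and 1.68 in the knockout. The WT ratios were nearly equal, WT 2 included, and all knockout ratios were higher. The Jag1 to Jag2 ratio, between genes with similar transcript lengths of 5612 and 5106 bases, was 2.995, 1.76 and 2.78 in WT against 5.27, 4.74 and 4.02 in the knockout, again without overlap. The longest transcripts of Jag1 and Jag2 differ in GC content, at 48.8% and 61.9%, and WT 2 had the lowest ratio of all libraries. The Hes1 to Hey1 ratio was 0.265, 0.242 and 0.277 in WT against 0.304, 0.362 and 0.355 in the knockout. Notch3 to Notch1 gave 0.188, 0.199 and 0.182 in WT against 0.208, 0.199 and 0.185 in the knockout, and these overlapped. With 3 libraries in each group an exact two-sided permutation test cannot go below 0.1, the value reached by the first 3 ratios (adjusted over the 4 ratios, 0.133), so none could pass; the last ratio had an exact permutation p-value of 0.4.

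**Figure D4:**
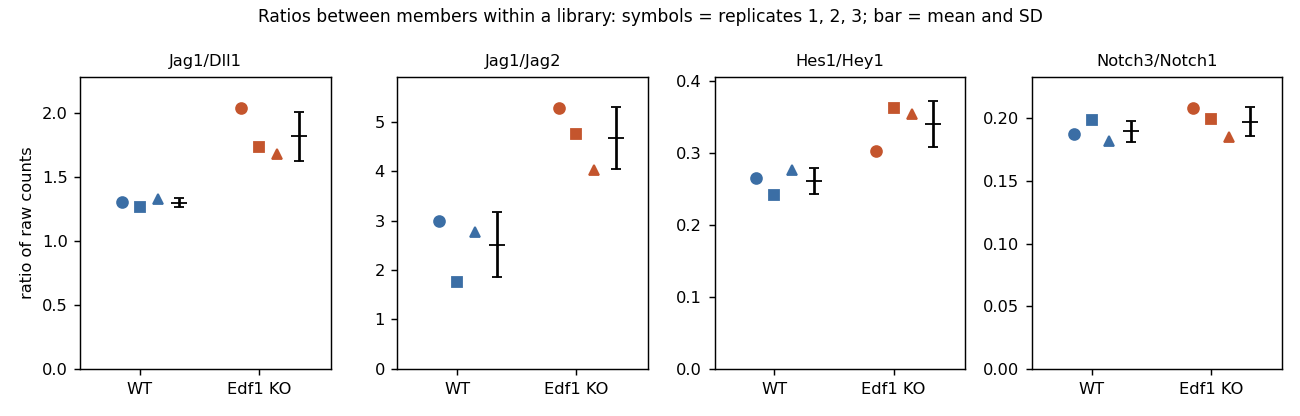
Ratio of raw counts between 2 Notch genes in the same library (vertical axes, from 0) for WT (blue) and Edf1 KO (orange); symbols are replicates 1, 2 and 3 and bars give the mean and SD (n = 3). The Jag1 to Dll1 ratio averages 1.3 in WT and 1.81 in the knockout, and the Notch3 to Notch1 ratio overlaps between the groups.

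The rest of the pathway was examined with a list of 64 genes in 10 roles, of which 56 passed the filter on low counts. Of these, 7 were called higher and 7 lower in the knockout by edgeR. The share called, 14 of 56, is close to the background of 26.9%, and the median log2 fold change was 0.04. The direction differed from gene to gene within most roles.

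Genes for receptor cleavage divided, with 3 of 9 higher and 2 lower. Adam10, the protease that makes the first ligand-dependent cut, rose from 141.9 ± 7.15 to 165.3 ± 4.22 CPM (log2 fold change 0.22). Ncstn, the gamma-secretase subunit nicastrin, rose from 151.8 ± 2.55 to 175.9 ± 4.39 CPM (log2 fold change 0.21), and Furin, a protease that processes the receptor during its maturation, had a log2 fold change of 0.19. Psen2, a catalytic subunit of gamma-secretase, fell from 41.3 ± 1.42 to 35.0 ± 0.65 CPM (log2 fold change -0.24). The small subunit gene Psenen was called lower at -0.19. Its longest transcript shares 40.7% of its 31-mers with another annotated gene, and with the length and GC correction it had -0.06 and Furin 0.11, neither of which passed. Ncstn was called in all 15 alternatives, Adam10 in 14, Psen2 in 12, Psenen in 10 and Furin in 8. The Psen2 call was lost without KO 1, without KO 3 and with the replicate number and the length and GC correction together.

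In the nucleus, Rbpj, the DNA-binding partner of the cleaved receptor, rose from 50.8 ± 4.36 to 60.0 ± 1.99 CPM (0.24 on the log2 scale, SE 0.069, edgeR adjusted p-value 0.0231). Of its 31-mers, 26.3% occur in other annotated genes, mainly Rbpj pseudogenes, so part of its reads could be assigned elsewhere. Its call was lost without KO 2 and without KO 3, with adjusted p-values up to 0.0928 over the alternatives (edgeR). Of 7 genes of the activation complex 1 passed, Rbpj; without WT 3, Ep300 and Kat2b were also called. The coactivators Maml1, Maml2 and Maml3 had 0.03, 0.14 and 0.20. Among 10 corepressors that act with Rbpj in the absence of signal, Spen (0.32) and L3mbtl3 (0.18) were called higher and Hdac1 (-0.15) lower. Spen has a transcript of 12299 bases and was still called after the length and GC correction, at 0.15, but not without KO 1 or without KO 2, whereas Hdac1 shares 62.7% of its 31-mers with other genes and was not called after it (-0.06). L3mbtl3 was called in 6 of 15 alternatives.

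Among modifiers of receptor and ligand, 1 of 5 glycosylation genes and 1 of 4 ligand endocytosis genes were called, both lower. Mfng, one of the Fringe enzymes that add sugar to Notch and tune its response to Delta against Jagged ligands, had the largest fall on the list. It had 3.39, 3.34 and 4.27 CPM in WT and 2.09, 1.84 and 2.09 CPM in the knockout. All knockout values were below all WT values, and the difference was -0.87 on the log2 scale (SE 0.20, edgeR adjusted p-value 0.00646), a call made in all 15 alternatives. The other Fringe genes Lfng (-0.08) and Rfng (0.09) were not called. Among genes for ligand endocytosis, which pulls on the bound receptor, Mib2 was lower (-0.24, not called without KO 1 or KO 2) and Mib1, with 93.8, 70.2 and 100.3 CPM in WT and 92.9, 86.9 and 95.8 CPM in the knockout, was not called (0.05, and -0.07 with the length and GC correction). The non-canonical ligand Dlk1 was lower, from 12.3 ± 0.84 to 9.21 ± 1.57 CPM (-0.43, adjusted p-value 0.0275 by edgeR), a call lost without WT 1, KO 2 or KO 3. Dner, another non-canonical ligand, had 121.6 to 142.5 CPM in WT and 125.5 to 131.0 CPM in the knockout and was not called (-0.05).

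Among 10 inhibitors and turnover genes, Dtx3, a Deltex-family ubiquitin ligase gene, had 130.9, 147.8 and 143.6 CPM in WT and 183.4, 202.7 and 209.6 CPM in the knockout. The groups were well separated, and the rise of 0.50 on the log2 scale (SE 0.064, adjusted p-value 9.88e-05 by edgeR) had the smallest adjusted p-value of the 66 members and pathway genes tested. Its paralog Dtx1 was lower (-0.20, not called without WT 3, KO 2 or KO 3), and Dtx4 (-0.02) was not called. Nrarp, a Notch target that encodes a feedback inhibitor, had only 11 to 17 counts in WT and 21 to 35 in the knockout, and its log2 fold change of 0.80 missed the threshold (edgeR, SE 0.31 and adjusted p-value 0.0768). Of the Nrarp exon bases, 79.4% are shared with an annotated transcript on the opposite strand, whose reads could be included. The list of further Hes-related repressors had 5 tested genes: Hes6, Hes7, Hey2 and the related Bhlhe40 and Bhlhe41. Of these, 0 were called in the reported edgeR fit, by DESeq2 or by limma voom. At an unadjusted p-value under 0.05 by edgeR there were 2: Hey2 (0.32) and Hes7 (-0.77). Hey2 was called higher in 2 of 15 alternatives, both with the length and GC correction, which alone gave 0.38 (adjusted p-value 0.0251 by edgeR). Hes7 was called lower in 1 of 14 alternatives, the fit without WT 3. The proneural genes Neurog1, Neurog2, Neurod1, Neurod4 and Atoh1, of a class that Hes proteins repress, had too few counts to be tested, with at most 6 in a library.

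**Figure D5:**
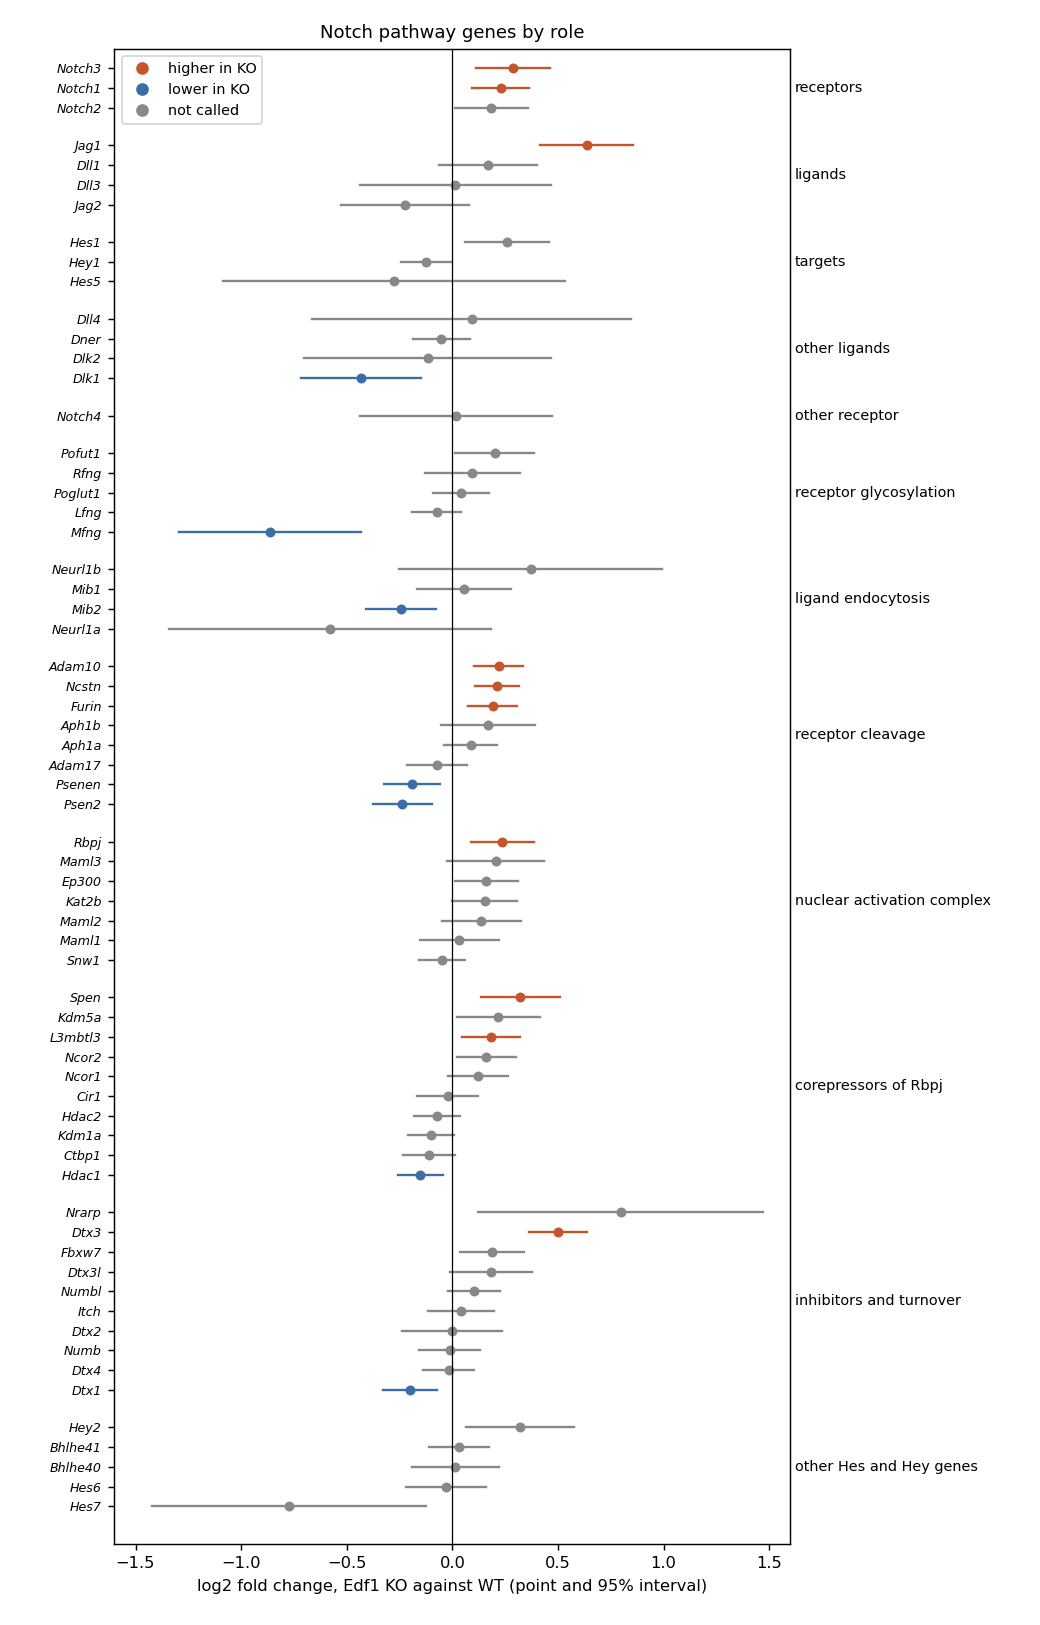
Log2 fold change, Edf1 KO against WT, with its 95% interval (horizontal axis) for the 10 members and other tested Notch pathway genes, grouped by role; orange is called higher, blue lower and grey not called. Calls in both directions occur in the cleavage, corepressor and turnover groups, and Jag1 at 0.64 has the largest rise among the called genes.

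By correlation of log2 CPM over the 6 libraries among 11015 genes compared, the genes most like Jag1 included Lix1l (Pearson's r 0.999) and Erbb4, a neuregulin receptor gene (0.997). With 6 points that share a genotype difference and the same low library, WT 2, these values are a description. Lix1l had 74.6, 65.2 and 73.4 CPM in WT and 86.0, 83.2 and 84.5 CPM in the knockout, and Erbb4 20.1, 15.9 and 20.2 CPM in WT and 26.9, 25.3 and 26.9 CPM in the knockout. Both share with Jag1 the lowest value in WT 2.

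Beside the members, 3 of 4 regulators of the multiciliated fate were lower in the knockout: Mcidas at -1.13, Ccno at -1.25 and Foxj1 at -0.59 on the log2 scale. Gmnc, which acts before them, had -0.18 and was not called.

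Markers of other cell types also differed between the groups. Of 10 pericyte and smooth muscle markers 5 were tested and 4 called higher (Pdgfrb, Acta2, Tagln and Cnn1), and their summed level was 824 to 871 CPM in WT and 991 to 1076 CPM in the knockout. The other tested marker of that list, Myh11, pointed down and was not called (-0.76). It had 26, 6 and 21 counts in WT and 3, 7 and 24 counts in the knockout. The more restricted mural markers of that list were low: Abcc9 had at most 3 counts in any library, and Rgs5, Kcnj8, Des and Vtn were too low to be tested. Of 10 meningeal fibroblast markers 9 were tested and 6 called higher, with 316 to 354 CPM in WT and 479 to 496 CPM in the knockout. Of 10 endothelial markers, Cldn5, Tie1, Emcn and Sox17 had at most 3 counts in any library and 2 were tested, of which Kdr was higher (1.73) and Flt1 lower (-1.58). The list summed to 46.5 to 53.1 CPM in WT and 129.6 to 134.1 CPM in the knockout, and Kdr alone had a mean of 38.1 CPM in WT against 126.9 CPM in the knockout. Of 10 microglia markers 9 were called lower, with 1261 to 1310 CPM in WT and 803 to 858 CPM in the knockout. Of 10 radial glia and astrocyte markers 3 were called higher (Aldh1l1 0.49, Nes 0.40 and Fabp7 0.20) and 1 lower (Gfap -0.42). For 6 of the 10 every knockout library exceeded every WT library, and for 2 the reverse held. Their summed CPM ranged from 10553 to 11077 over the WT libraries and from 11494 to 11921 over the knockout libraries. Vim supplied most of this sum and was not called (0.13), with means of 6273 CPM (WT) and 6849 CPM (knockout). Of 10 neuroblast and neuron markers 9 were tested, with 3 called lower (Dcx -1.61, Tubb3 -0.81 and Dlx2 -0.74) and 0 higher. Dcx had only 20, 10 and 16 counts in WT and 4, 5 and 7 in the knockout. Of those not called, Syt1 (0.53), Elavl4 (0.43) and Elavl3 (0.42) pointed up. Stmn2 (-0.07), Gad1 (-0.18) and Rbfox3 (-0.61) pointed down. The summed level of the 10 was 48.8 to 50.9 CPM in WT and 42.9 to 45.5 CPM in the knockout. Of 8 pituitary hormone and lineage genes 4 were tested. The prolactin gene Prl had 0 counts in every WT library and 198, 175 and 131 counts in the knockout, Cga (4.55) and Pomc (1.97) were also higher, and Lhb was lower (-1.37). The part of these cells in the values of Jag1, Notch3 or Mfng was not tested.

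Several members share exon sequence with annotated transcripts on the opposite strand: 9.76% of the exon bases of Notch1, 6.03% of Notch3, 20.6% of Dll1 and 31.8% of Hes5. Of Notch2, 5.02% are shared with a transcript on the same strand. It is not stated whether counting used strand, so reads from the opposite strand could be included for these 4. Dll3, Jag1, Jag2, Hes1 and Hey1 overlap no other annotated exon.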

How the data were processed

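The deposited file holds whole-number read counts per gene symbol, 1 column per library, with no rows lacking a gene name. FastQC 0.11.2, cutadapt 1.11, HISAT2 2.1.0 and build GRCm38 are named in the submitters' processing notes; the counting program, annotation, strand setting and treatment of reads with several positions are not given in the sources used here.

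Counts were tested as deposited in R 4.3.3 with edgeR 4.0.16: filterByExpr, TMM scaling (factors 0.985 to 1.01) and the quasi-likelihood test of Edf1 KO against WT on all 6 libraries, adjusted over 14243 genes, threshold 0.05. Standard errors were taken as log2 fold change over root F, and 95% intervals use the test's degrees of freedom. P-values measure the spread between these libraries, which the series' design calls biological replicates. Pairs of replicates differed by more than sampling noise (chi-square per degree of freedom 3.04 to 9.89). Transcript lengths, GC content and positions came from GENCODE M21 by symbol (98.9% of tested genes matched), and the correction used natural splines with 4 degrees of freedom per property. Alternatives also used DESeq2 1.42.0 and limma 3.58.1. The fits were tested on simulated counts with known changes.

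Members and lists were chosen with earlier results of these data known. Named singly are Edf1, the 10 members, in each role of the pathway list the called genes (at most 4 by size where more), the 3 genes most like the member with the largest change, and Gmnc, Mcidas, Ccno and Foxj1. Other genes named, and the ratios between members, were chosen after their values were seen. Some genes that this rule or the lists include are not reported here, though they stay in the counts.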

Additional observations from a re-analysis of the deposited data

How the results depend on the processing

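Edf1 and Jag1 kept their direction and their call in all 15 alternatives each. The count of 3 members called higher became 1 (Jag1) at a threshold of 0.01 and was 1 to 4 when one library at a time was omitted; 0 members were called lower in every setting. Of the other pathway genes, 3 were higher and 1 lower at 0.01, and leaving out one library gave 3 to 9 higher and 2 to 7 lower. Without KO 1 there were 3 and 3, without KO 2 3 and 3, and without KO 3 4 and 2, in fits with fewer samples. Over all genes, 3833 were called in the reported fit and 2213 at 0.01. Without KO 1, KO 2 and KO 3 the totals were 2658, 2662 and 2701, and with the GC and length correction 4541. The direction of Dll3 was not stable: -0.0031 with the GC and length correction, -0.0038 without WT 1, -0.0010 without WT 3 and -0.081 without KO 1, within -0.081 to 0.083 over the fits with one library left out; the cause was not tested. With the replicate number as a block, 3 members were called higher (Notch1 0.23, Notch3 0.29, Jag1 0.65) and 0 lower; this block changed no member's call, and 4065 genes were called in all. With the block and the GC and length correction together, Notch1 had 0.08 and Notch3 0.14, not called, and Hes1 0.36, called. Deviations from the group mean correlated at 0.069, 0.060 and 0.037 between libraries of the same number, so no pairing was assumed. Other scalings left the median of all genes within 0.02 of 0. Among the members, Hes5 and Dll3 had few counts, 7 to 28 and 31 to 60 per library.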
